A study of Mus musculus with 12 samples.

Results

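The Schlafen genes encode a family of mammalian proteins that share a core region and have multiplied differently in each rodent and primate lineage. The 7 genes described here, SLFN1, SLFN2, SLFN3, SLFN4, SLFN5, SLFN8 and SLFN9, were taken by symbol from a table of 23636 mouse gene symbols, which held all 7. They are known from the immune system, where several are induced by interferons, and some members act on transfer RNA or on the growth and quiescence of lymphocytes and myeloid cells. SLFN1 and SLFN2 are short proteins that hold little beyond the core, SLFN3 and SLFN4 are of intermediate length, and SLFN5, SLFN8 and SLFN9 are long and carry a helicase-like region at the end of the chain.

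CT26 is a colon carcinoma cell line that arose in BALB/c mice and grows as a pure tumor cell culture. The labels describe 4 groups of 3 biological replicates, 12 libraries in all: CT26 with no treatment, with the chemokine CX3CL1 (fractalkine), with the cytokine IFN-γ, or with CX3CL1+IFN-γ. According to the methods and legends of the study, recombinant CX3CL1 was used at 2 µg/ml and IFN-γ at 100 ng/ml, for 8 hours. For the comparison of IFN-γ with and without CX3CL1, the study's results text also names TNF-α and places CX3CL1 afterwards. The legend and the labels name IFN-γ only, and the labels do not give the order of addition. Levels are given as TPM, a share of each library's total that is corrected for transcript length, so levels of different genes can be set side by side. TPM carry no read depth, and precision comes from the spread between replicates. Fewer cells that express a gene and less RNA per cell cannot be told apart in such bulk samples.

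Facts of the whole series bear on the members in 3 ways. Replicates of a group had a Pearson r between 0.994 and 0.998 over log2(TPM + 1), and CX3CL1 replicate 2 was the least like its group, with median absolute log2 differences of 0.266 and 0.262 against 0.141 between the other two. The defining leukocyte markers PTPRC, CD3E, ITGAM, ADGRE1 and CSF1R stood at no more than 0.134 TPM in any library. The whole list of 10 leukocyte markers summed to 35.1 to 47.1 TPM without treatment, 38.1 to 69.6 with CX3CL1, 36.9 to 57.3 with IFN-γ and 41.9 to 70.2 with both, nearly all of it from CD14 and CD68. The epithelial genes EPCAM, CDH1, CDX2, VIL1 and KRT8 were at 0 or at most 0.364 TPM in any library, while the keratin genes KRT18 and KRT20 were present, at 18.4 to 53.6 and 6.44 to 16.8 TPM, and the mesenchymal filament gene VIM ran from 1684 to 4831 TPM. The identity list of 8 genes, mostly VIM, summed to 3722 to 4891 TPM without treatment, 3114 to 3911 with CX3CL1, 2464 to 3590 with IFN-γ and 1717 to 3163 with both, and KRT18 was lower with IFN-γ (log2 fold change -0.68, SE 0.18, adjusted p = 0.0346). Of 5 fibroblast and endothelial markers, COL1A2 was lower with CX3CL1 (-0.50, SE 0.11, adjusted p = 0.0408), and the list summed to 754 to 954, 529 to 678, 638 to 736 and 482 to 538 TPM in the same order. Their part in the results for the members was not tested.

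The 7 genes lie side by side on chromosome 11. By the GENCODE vM21 annotation (GRCm38, the same assembly as mm10) they span positions 82951349 to 83215154, which is 263.8 kb. From left to right the order is SLFN5 (82951349 to 82964840), SLFN9 (82978390 to 82991830), SLFN8 (83002158 to 83020810), SLFN2 (83065112 to 83070678), SLFN1 (83116849 to 83122670), SLFN4 (83175186 to 83190216) and SLFN3 (83191330 to 83215154). SLFN9 and SLFN8 are on the minus strand and the other 5 on the plus strand. The pseudogene SLFN10-PS lies between SLFN8 and SLFN2, and SLFN14 lies beyond SLFN3. Longest coding sequences ran from 337 codons for SLFN1 and 378 for SLFN2 through 602 for SLFN4 and 640 for SLFN3 to 884 for SLFN5 and 910 each for SLFN8 and SLFN9.

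The promoters are shown to set the similar sequences in front of SLFN8 and SLFN9, whose changes differed in size, beside those of other members. The RefSeq promoter table (GRCm38.p6) held all 7 members, with 8 start sites. Below are the 250 bases upstream of a start site, 5′ to 3′ in the direction of transcription, for the 3 members with a match to the core of the interferon-stimulated response element (ISRE) and for SLFN2, the member with the largest log2(TPM + 1) change. Capitals mark the match to GAAANNGAAA on either strand. The intervals are chr11:82991831-82992080 (minus strand) for SLFN9, chr11:83020811-83021060 (minus) for SLFN8, chr11:82951852-82952101 (plus) for SLFN5 and chr11:83064862-83065111 (plus) for SLFN2.
SLFN9: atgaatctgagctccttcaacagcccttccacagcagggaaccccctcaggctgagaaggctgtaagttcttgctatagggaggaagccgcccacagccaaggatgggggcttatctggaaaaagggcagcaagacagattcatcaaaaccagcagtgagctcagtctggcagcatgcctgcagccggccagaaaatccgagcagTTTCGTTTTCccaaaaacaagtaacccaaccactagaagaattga
SLFN8: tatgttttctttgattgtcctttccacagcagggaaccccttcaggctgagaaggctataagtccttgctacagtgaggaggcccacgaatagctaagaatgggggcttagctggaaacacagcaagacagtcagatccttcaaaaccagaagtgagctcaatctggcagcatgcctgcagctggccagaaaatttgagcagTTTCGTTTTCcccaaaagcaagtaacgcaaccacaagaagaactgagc
SLFN5: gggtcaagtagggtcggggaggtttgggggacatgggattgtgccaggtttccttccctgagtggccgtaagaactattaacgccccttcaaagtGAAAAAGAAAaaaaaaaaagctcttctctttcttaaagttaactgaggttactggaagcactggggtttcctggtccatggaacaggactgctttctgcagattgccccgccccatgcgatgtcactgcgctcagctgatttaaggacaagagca
SLFN2: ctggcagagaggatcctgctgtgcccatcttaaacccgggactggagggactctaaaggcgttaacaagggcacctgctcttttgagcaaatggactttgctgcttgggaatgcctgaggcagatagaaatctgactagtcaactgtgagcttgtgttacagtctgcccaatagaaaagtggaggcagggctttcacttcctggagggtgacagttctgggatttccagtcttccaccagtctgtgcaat
The same 10 letters, TTTCGTTTTC, stood in front of both long paralogs, beginning 45 bases before the start site of SLFN9 and 48 bases before that of SLFN8. A second RefSeq start site of SLFN8 lies downstream, and the same letters then begin 136 bases before it. In SLFN5 the match was GAAAAAGAAA, 155 bases before the start site. This RefSeq start site lies downstream of the GENCODE start of SLFN5, so the SLFN5 window lies within the gene as placed above. Searched over 300 bases, from 250 before to 50 after the start, 3 of 7 members held an ISRE core, in 4 of 8 promoters. Of 32851 mouse promoters of that length, 3.44% hold one. Both SLFN8 promoters hold the same match, and the SLFN8 and SLFN9 windows are similar, so these matches are not independent. None of the 7 held a GAS match (TTCNNNGAA, the site type of the IFN-γ pathway, in 8.30% of all promoters) or the NF-kB letters GGGANNTTCC (in 1.47%). SLFN1, SLFN2, SLFN3 and SLFN4 held no match to any of the 3 motifs. A match is a description of letters in this window and no match says only that those letters are not there.

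In untreated CT26 cells a single member made up most of the family's transcripts. SLFN9, a long member, stood at 168, 157 and 150 TPM in replicates 1, 2 and 3, a mean of 158.3 ± 8.85 (SD, n = 3), and ranked 1041 of all symbols. SLFN3, an intermediate member known from the control of T cell growth and of gut epithelial maturation, followed at 38.4, 39.4 and 30.2 TPM (mean 36.0 ± 5.04). SLFN8, the close paralog of SLFN9, stood at 12.4, 11.1 and 11.04 TPM (mean 11.5 ± 0.789). These 3 members were separated from each other in every untreated library.

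SLFN2, known for keeping T cells in quiescence and for shielding transfer RNA from cleavage, was low at 3.43, 2.18 and 3.08 TPM (mean 2.90 ± 0.645, n = 3). The other members were at or near 0. SLFN5, a long nuclear member, was listed at 0.00889, 0.00604 and 0.0135 TPM. SLFN4, best known from macrophages and other myeloid cells, was listed at 0.0138, 0 and 0 TPM. SLFN1, named for its effect on thymocyte growth, was listed at 0 in all 3 untreated libraries. The levels of SLFN4 and SLFN5 did not differ beyond their spread, and no order among these 3 low members can be read.

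**Figure D1:**
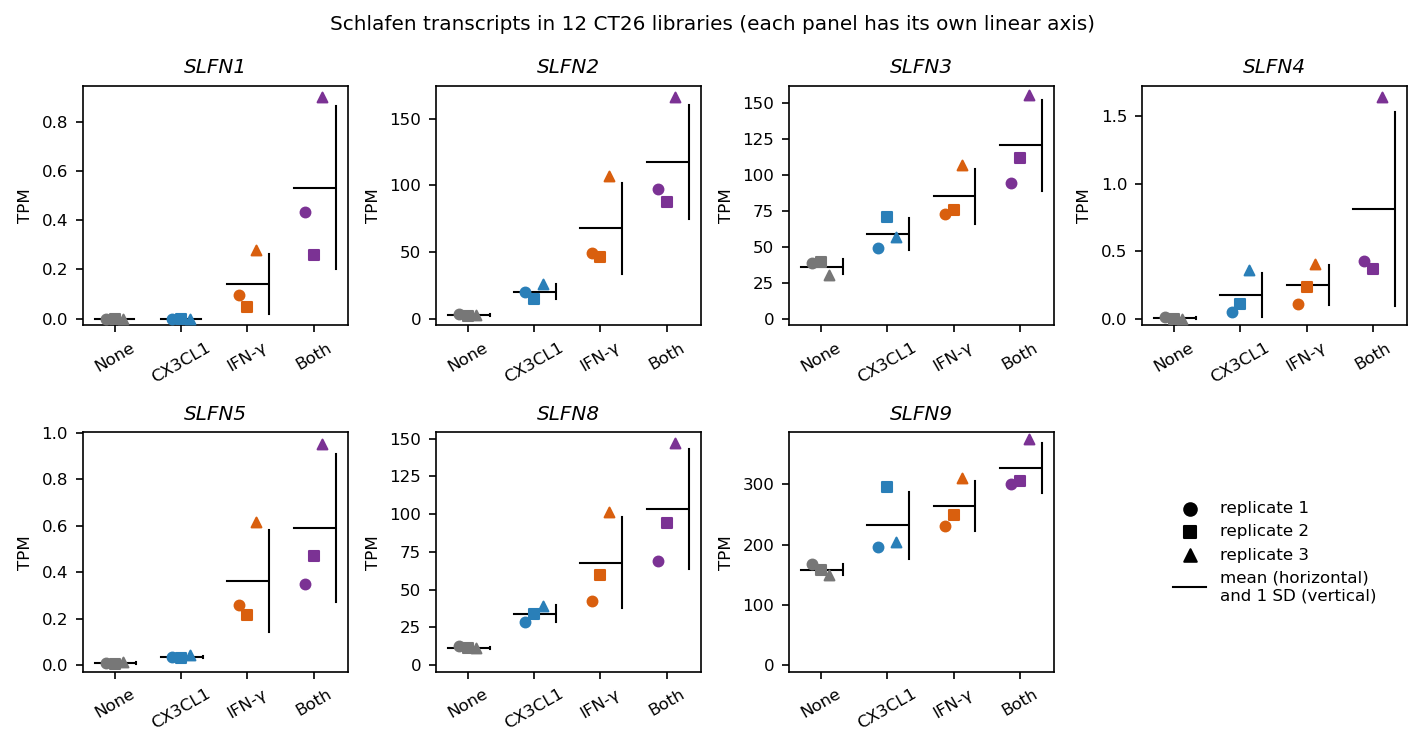
TPM of each Schlafen member (vertical axis, linear, own scale per panel) in the 12 CT26 libraries by group (horizontal axis), with replicates 1, 2 and 3 as circles, squares and triangles, the group mean as a horizontal line and 1 SD as a vertical line. In each panel the group means ascend or stay level from no treatment through CX3CL1 and IFN-γ to both, and replicate 3 is the highest in both groups that had IFN-γ.

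With IFN-γ, the type II interferon, 4 of the 6 members tested were higher than in untreated cells, against a background of 5.91% of the 11878 genes tested that were called higher. A gene was called at a Benjamini-Hochberg adjusted p under 0.05 in limma on log2(TPM + 1), and genes averaging under 0.2 TPM, SLFN1 among them, were not tested. Every IFN-γ library was above every untreated library for 6 of the 6 members tested, a separation that 20.6% of the genes tested showed, and for SLFN1 as well. No member was lower. SLFN4 and SLFN5 reached the mean of 0.2 TPM only through the groups in which they were high, so counts over 6 members are descriptions. Among the 4 members that averaged 1 TPM or more, 4 were called with IFN-γ, 2 with CX3CL1, 0 for CX3CL1 added to IFN-γ and 3 for IFN-γ added to CX3CL1. Over all genes averaging 0.2 TPM or more, the shares called higher were 5.91%, 1.78%, 0.345% and 3.76% in the same order. That background includes genes averaging under 1 TPM, and no share at 1 TPM or more is given here. These 4 members, SLFN2, SLFN3, SLFN8 and SLFN9, were all among those separated with IFN-γ.

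SLFN2 had the largest change of the members on the log2(TPM + 1) scale. In TPM the mean of SLFN9 moved further, by 105.5 against 64.9 for SLFN2. The level of SLFN2 with IFN-γ was 49.6, 46.5 and 107 TPM, a mean of 67.8 ± 34.2 (SD, n = 3), which is 23.4 times the untreated mean. The lowest IFN-γ library was thus far above the highest untreated one. The log2 fold change was 4.05 (SE 0.32, adjusted p = 6.6e-06), and 25 of the genes tested had a larger one.

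SLFN8 stood at 42.8, 59.4 and 101 TPM with IFN-γ (mean 67.9 ± 30.2), 5.88 times its untreated mean, with a log2 fold change of 2.37 (SE 0.29, adjusted p = 1.6e-04). SLFN9, which shares 92.7% of its coding bases with SLFN8, stood at 231, 249 and 311 TPM (mean 263.9 ± 42.0), 1.67 times its untreated mean. Its log2 fold change was 0.72 (SE 0.16, adjusted p = 0.0134), and the 95% interval of 0.38 to 1.07 lay below that of SLFN8, 1.74 to 3.00. The promoter windows of this pair, from 250 bases before to 50 after the start site, were 84.9% identical over 292 aligned bases. The call of SLFN9 rested on single libraries, and its adjusted p was 0.0676 without untreated replicate 3 and 0.0765 without IFN-γ replicate 3.

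SLFN3 stood at 72.4, 75.7 and 107 TPM with IFN-γ (mean 84.9 ± 18.9), 2.36 times its untreated mean. Its log2 fold change was 1.20 (SE 0.20, adjusted p = 0.00215). SLFN4 is 92.7% identical to SLFN3 over 1788 aligned coding bases, and its level stayed at 0.106, 0.234 and 0.403 TPM. All 3 values were above the untreated ones, but the log2 fold change of 0.31 (SE 0.21, adjusted p = 0.428) did not pass the test. On the log2(TPM + 1) scale the change of such low genes is understated.

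SLFN5 stood at 0.259, 0.217 and 0.617 TPM with IFN-γ, against at most 0.0135 TPM without treatment. The log2 fold change of 0.42 (SE 0.14) had an adjusted p of 0.0949. With the replicate number as a block the adjusted p was 0.0309, and on the log2(TPM + 0.1) scale it was 0.00695 at a log2 fold change of 1.99. SLFN1, at 0 without treatment, was listed at 0.0969, 0.0468 and 0.277 TPM, so no fold can be given.

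With CX3CL1 alone, 2 of the 6 members tested were higher than in untreated cells, SLFN2 and SLFN8, against 1.78% of all genes tested. The 3 CX3CL1 libraries were above the 3 untreated ones for SLFN2, SLFN3, SLFN8 and SLFN9, and 5.50% of the genes tested showed this. SLFN4 and SLFN5, which passed the filter through the groups in which they were high, were separated as well. SLFN1 was at 0 in all 3 libraries of both groups.

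SLFN2 stood at 20.3, 14.7 and 25.9 TPM with CX3CL1 (mean 20.3 ± 5.60, n = 3), 7.01 times the untreated mean. The log2 fold change was 2.43 (SE 0.32, adjusted p = 0.00112), and 20 of the genes tested had a larger one. SLFN2 was thus near the top of the whole table on this measure.

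SLFN8 stood at 28.4, 34.1 and 39.5 TPM with CX3CL1 (mean 34.0 ± 5.56), 2.95 times the untreated mean. Its log2 fold change was 1.47 (SE 0.29, adjusted p = 0.0162). The groups did not overlap, and yet this call was lost in 4 of 6 fits that left out a library, with adjusted p from 0.0557 without CX3CL1 replicate 2 through 0.0743 and 0.0825 without untreated replicates 2 and 3 to 0.0851 without CX3CL1 replicate 3.

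SLFN9 stood at 195, 295 and 204 TPM with CX3CL1 (mean 231.8 ± 55.3), and SLFN3 at 48.8, 70.4 and 56.7 TPM (mean 58.6 ± 10.9). Both were highest in CX3CL1 replicate 2, the library least like its group. Their log2 fold changes of 0.52 (SE 0.16, adjusted p = 0.186) and 0.68 (SE 0.20, adjusted p = 0.166) did not pass the test. SLFN4 was listed at 0.0517, 0.112 and 0.357 TPM and SLFN5 at 0.0333, 0.0310 and 0.0424 TPM, with log2 fold changes of 0.22 (SE 0.21) and 0.04 (SE 0.14) and an adjusted p of 1.00 each.

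Set against CX3CL1, the IFN-γ libraries were all higher for SLFN2, SLFN3 and SLFN8, where 18.3% of the genes tested showed this. They were all higher for the low members SLFN5 and SLFN1 as well. SLFN9 and SLFN4 were the members whose ranges overlapped between these groups. For SLFN9, the CX3CL1 library at 295 TPM exceeded 2 of the 3 IFN-γ libraries.

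**Figure D2:**
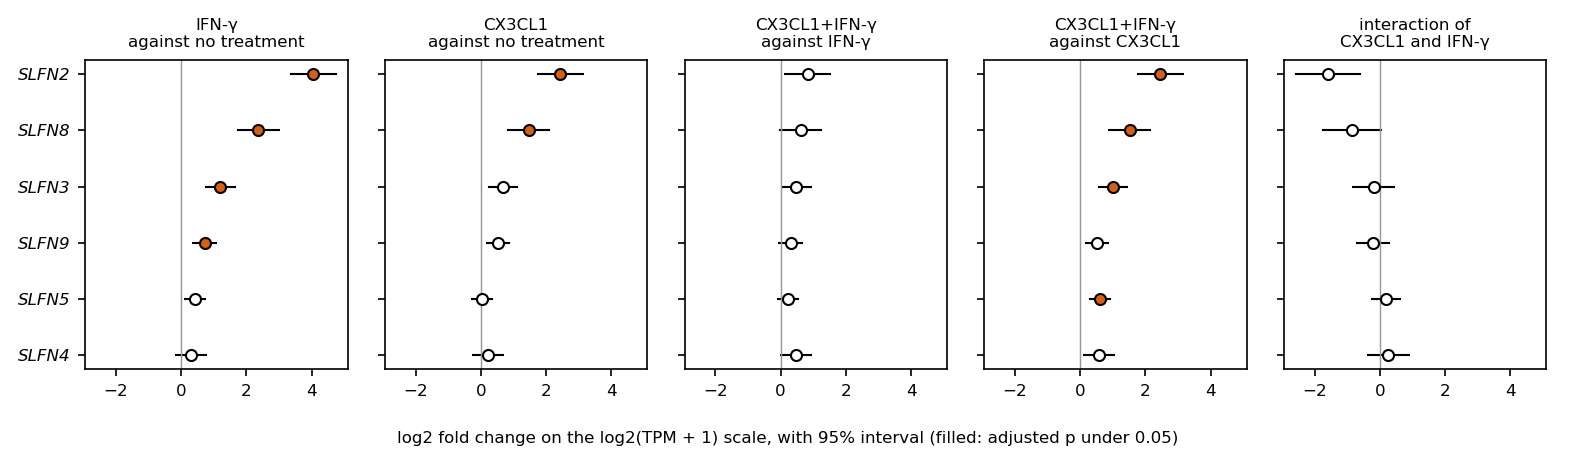
Log2 fold change on the log2(TPM + 1) scale (horizontal axis, with its 95% interval) of the 6 members tested (vertical axis) in 4 comparisons and the interaction; filled points have an adjusted p under 0.05. SLFN2 has the largest change in each of the 4 comparisons, 4.05 with IFN-γ and 2.43 with CX3CL1, and no member is filled where CX3CL1 was added to IFN-γ.

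Adding CX3CL1 to IFN-γ gave the highest group mean of each member, but no member passed the test against IFN-γ alone. The count was 0 of 6 tested, against 0.345% of all genes called higher. At an unadjusted p under 0.05 limma gave SLFN2, SLFN3 and SLFN4, and 4.35% of all genes tested. The ranges of the 2 groups overlapped for all 7 members, so 0 of the 6 tested were separated, against 8.54% of the genes tested.

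SLFN2 stood at 97.5, 87.8 and 166 TPM with both agents, a mean of 117 ± 42.8 (SD, n = 3) and 40.4 times the untreated mean. Against IFN-γ alone the log2 fold change was 0.83 (SE 0.32, 95% interval 0.14 to 1.52, adjusted p = 0.903). SLFN8 stood at 69.1, 93.8 and 147 TPM (mean 103 ± 39.9), with a log2 fold change of 0.62 (95% interval -0.01 to 1.25, adjusted p = 0.975). The step between the group means was 49.4 TPM for SLFN2, beside SDs of 34.2 with IFN-γ and 42.8 with both. For SLFN8 it was 35.6 TPM, beside SDs of 30.2 and 39.9. Replicate 3 was the highest in both groups, so these SDs include differences shared by libraries of the same number.

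SLFN3 stood at 93.9, 111 and 155 TPM with both agents (mean 120 ± 31.6), and SLFN9 at 300.3, 305 and 375 TPM (mean 326.9 ± 41.6). Their log2 fold changes against IFN-γ alone were 0.49 (95% interval 0.05 to 0.92) and 0.31 (95% interval -0.03 to 0.66). The low members were listed highest in this group, SLFN1 at 0.436, 0.259 and 0.901 TPM, SLFN4 at 0.425, 0.371 and 1.64 TPM and SLFN5 at 0.350, 0.468 and 0.955 TPM.

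Libraries of these 2 groups with the same replicate number deviated together across genes, and within a number the value with both agents was above that with IFN-γ alone for each of the 7 members in each of the 3 pairs. Of all genes tested, 25.0% were above in each of the 3 pairs. For SLFN2 the ratio was 1.97, 1.89 and 1.55 in numbers 1, 2 and 3. For SLFN8 it was 1.62, 1.58 and 1.45, for SLFN3 1.30, 1.47 and 1.46, and for SLFN9 1.30, 1.23 and 1.20. With the replicate number as a block, the smallest adjusted p among the members was 0.0861, for SLFN2, and still no member was called.

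Adding IFN-γ to CX3CL1 called 4 of 6 members higher, against 3.76% of all genes tested. SLFN2, SLFN3, SLFN8 and SLFN9 were separated between these groups, and 14.0% of the genes tested were. SLFN4 and SLFN5, which passed the filter through the groups in which they were high, were separated as well. So was SLFN1, which was not tested. SLFN2 had a log2 fold change of 2.45 (SE 0.32, adjusted p = 7.6e-04) and SLFN8 one of 1.52 (SE 0.29, adjusted p = 0.00897). SLFN3 followed with 1.01 (SE 0.20, adjusted p = 0.0120) and SLFN5 with 0.60 (SE 0.14, adjusted p = 0.0291), a gene that was tested at all only because of its level with IFN-γ.

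Some of these calls depended on 1 library. Without CX3CL1 replicate 1 or without CX3CL1+IFN-γ replicate 3, 2 members were called, SLFN2 and SLFN8, and the adjusted p of SLFN3 was 0.0521 and 0.0601. SLFN5 also lost its call without CX3CL1 replicate 2 (adjusted p = 0.0598) and without CX3CL1 replicate 3 (0.0787). SLFN9, with a log2 fold change of 0.51 and an adjusted p of 0.0975, passed only when the high CX3CL1 replicate 2 was left out, at 0.70 and 0.0141. SLFN4, at 0.57 and an adjusted p of 0.163, passed with the replicate number as a block, at 0.0455. Like SLFN5, SLFN4 was tested at all only because of its levels in the groups with IFN-γ.

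The interaction asks whether the log2 effect of CX3CL1 differed with and without IFN-γ. It called 0 of 6 members, and 0% of the genes tested, of which 273 had an unadjusted p under 0.05 in limma. In 1 of 20 alternatives, the replicate block, SLFN2 was called at an adjusted p of 0.0263. The interaction of SLFN2 was -1.60 on the log2 scale (SE 0.45, unadjusted p = 0.00367, adjusted p = 0.529), since CX3CL1 moved it by 2.43 alone and by 0.83 on top of IFN-γ. The same steps read in TPM had the opposite order. CX3CL1 added 17.4 TPM to the mean of SLFN2 without IFN-γ and 49.4 TPM with it.

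SLFN8 showed the same pair of readings, with an interaction of -0.85 on the log2 scale (SE 0.41, adjusted p = 1.00) and steps of 22.5 and 35.6 TPM. For SLFN3 the steps were 22.6 and 35.3 TPM, and for SLFN9 they were 73.4 and 63.0 TPM, with interactions of -0.19 (SE 0.29) and -0.21 (SE 0.23). The differences between the steps in TPM were not tested.

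**Figure D3:**
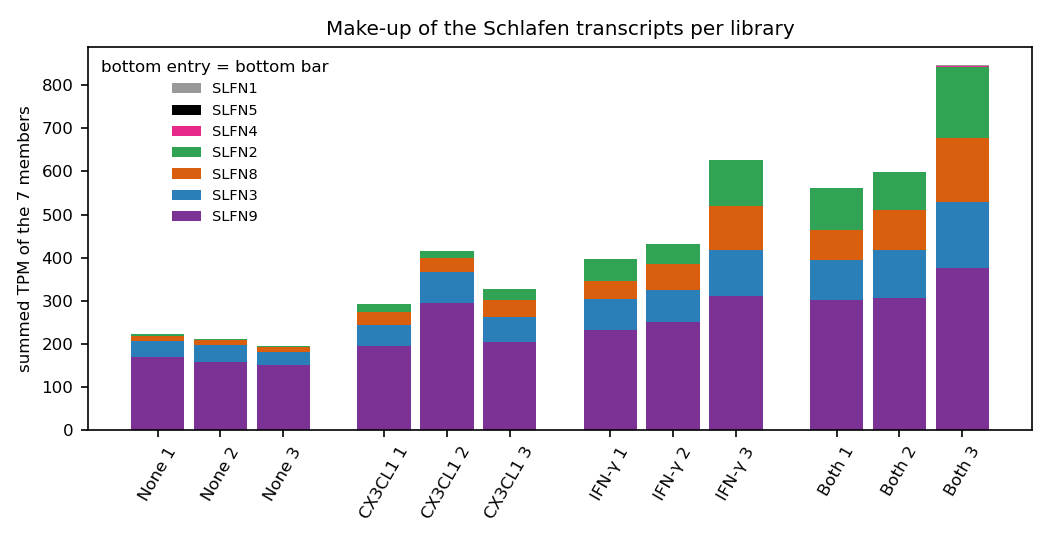
Summed TPM of the 7 Schlafen members (vertical axis, from 0) in each of the 12 libraries (horizontal axis, group and replicate number), stacked by member from SLFN9 at the bottom. The sum runs from 194 TPM in an untreated library to 847 TPM in a library with both agents, and the SLFN2 and SLFN8 segments take a growing part of the bar.

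The make-up of the family differed between the groups. The 7 members summed to 208.8 ± 13.8 TPM without treatment, 344.9 ± 62.8 with CX3CL1, 485 ± 125 with IFN-γ and 669.6 ± 155 with both (SD, n = 3 each). SLFN9 held 75.9% ± 1.19 of the sum without treatment, 66.8% ± 4.35 with CX3CL1, 55.2% ± 4.90 with IFN-γ and 49.5% ± 4.75 with both. SLFN2 went the other way, with 1.39% ± 0.305, 6.14% ± 2.30, 13.5% ± 3.26 and 17.2% ± 2.50.

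SLFN8 held 5.53% ± 0.204, 10.0% ± 1.94, 13.6% ± 2.68 and 15.1% ± 2.58 in the same order of groups. The share of SLFN3 lay between 17.0% and 17.9% in the group means. With both agents SLFN2, SLFN3 and SLFN8 had means of 117, 120 and 103 TPM. SLFN3 was above SLFN8 in every library of this group, and SLFN2 kept no fixed order with either. SLFN9 remained above all of them in every library, and these differences between genes were not tested. Shares sum to a fixed total, so a larger share of one member lowers the others.

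Replicate 3 held the highest value of all 7 members with IFN-γ and again with both agents. Of all genes tested, 21.2% and 19.6% had their highest value in that library. Of 30 interferon-stimulated effector genes, 29 and 28 did, so the members shared this order with that list. With CX3CL1 alone, replicate 3 was the highest for 4 of the 6 members detected and for 23 of the 30 effectors, against 18.3% of all genes tested. Without treatment, 4 of 6 members were highest in replicate 1, as were 25 of the 30 effectors and 57.6% of all genes tested. With both replicate 3 libraries left out, an alternative chosen after seeing the data, the counts of members called were 3 for IFN-γ against no treatment and 3 for both agents against CX3CL1.

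The upstream signalling genes of the interferon pathway bring the signal from receptor to promoter through JAK kinases, STAT proteins and IRF factors. Of 23 such genes, 9 were higher with IFN-γ, with a median log2 fold change of 0.50 beside 0.03 over all genes tested. The largest changes were those of IRF7, a transcription factor of the interferon response (3.84, SE 0.41), and USP18, a brake on interferon receptors (3.20, SE 0.29), which also had the highest mean TPM of the list. With CX3CL1, 4 of the 23 were higher, among them USP18 (2.42, SE 0.29), STAT2 (1.42, SE 0.22) and IRF9 (0.80, SE 0.11), with a list median of 0.29. Added to IFN-γ it called 0 of 23 in limma, with 2 at an unadjusted p under 0.05, and IFN-γ added to CX3CL1 called 6. In the same order of comparisons, 5.91%, 1.78%, 0.345% and 3.76% of all genes tested were higher.

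All 30 effector genes tested, the antiviral and chemokine products of the pathway, were higher with IFN-γ, with a median log2 fold change of 2.91. The largest changes were those of the nucleic acid sensor ZBP1 (5.52, SE 0.35) and the guanylate-binding protein GBP2 (5.44, SE 0.36), and the highest levels those of tetherin, BST2 (2.25, SE 0.36), and ISG15 (2.95, SE 0.25). With CX3CL1, 22 of 30 were higher (median 1.81). When CX3CL1 was added to IFN-γ 0 of 30 passed in limma, with 1 at an unadjusted p under 0.05 (median 0.29), and when IFN-γ was added to CX3CL1 27 did (median 1.39). The median of the 6 Schlafen members tested was 0.96 with IFN-γ, 0.60 with CX3CL1, 0.48 for CX3CL1 added to IFN-γ and 0.80 for IFN-γ added to CX3CL1. These medians include the low genes SLFN4 and SLFN5, whose change is understated on the log2(TPM + 1) scale.

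Of 11 NF-kB subunits and inhibitors, 5 were higher with IFN-γ and 7 with CX3CL1, against 5.91% and 1.78% of all genes tested. The list medians were 0.76 and 0.93, beside 0.03 and -0.02 over all genes tested. The largest changes with CX3CL1 were those of NFKBIZ (2.67, SE 0.24) and NFKBIA (2.25, SE 0.30), inhibitor-like regulators of NF-kB. The subunit genes NFKB2 (0.90, SE 0.20) and NFKB1 (0.93, SE 0.10) had the highest mean TPM. Added to IFN-γ, CX3CL1 called 2 of 11, NFKBIZ and NFKB1, against 0.345% of all genes tested. Of the genes that cleave or protect transfer RNA, the process in which SLFN2 is known, 7 of 10 could be tested. With IFN-γ 1 of them was higher, against 5.91% of all genes tested. It was the ribonuclease gene ANG (0.38, SE 0.11, adjusted p = 0.0426), a low gene with means of 0.585 TPM untreated and 1.06 TPM with IFN-γ.

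**Figure D4:**
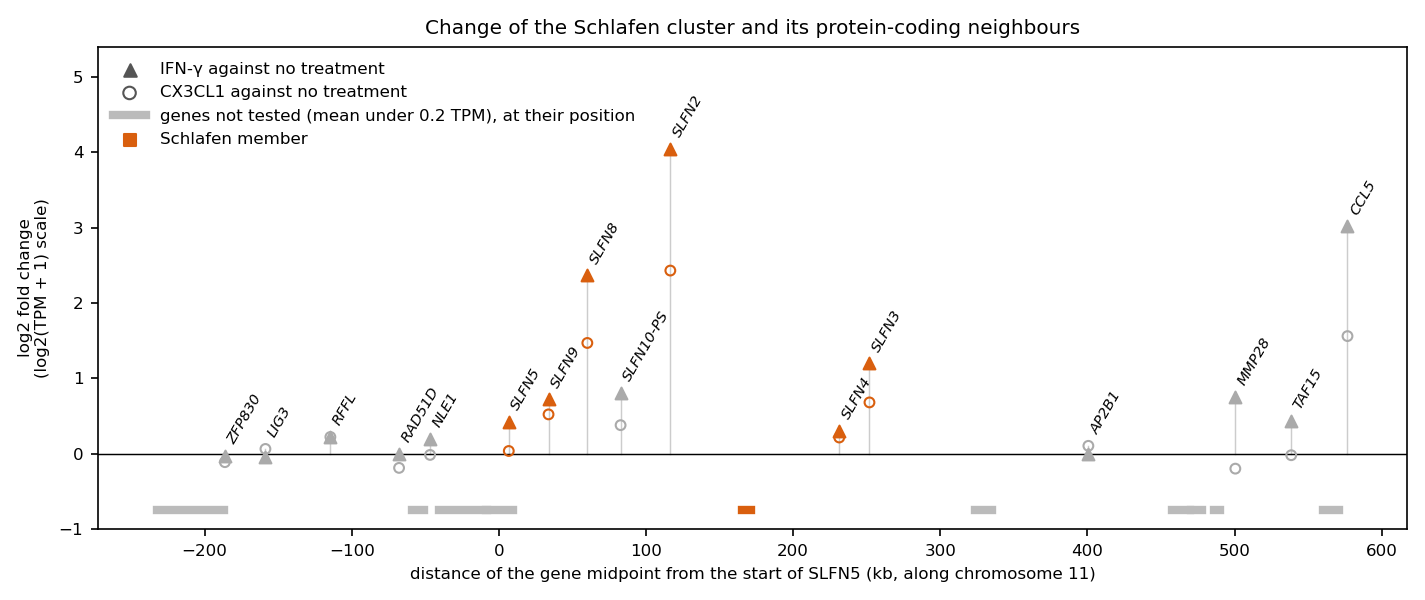
Log2 fold change on the log2(TPM + 1) scale (vertical axis) against the distance of each gene's midpoint from the start of SLFN5 (horizontal axis, kb), with IFN-γ as triangles and CX3CL1 as circles, Schlafen members in orange, other genes in grey, and untested genes as bars near the bottom. The largest change lies at SLFN2 in the middle of the cluster (4.05 with IFN-γ), and CCL5 stands apart from the other neighbours drawn at the right edge (3.02).

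Around the cluster, 17 protein-coding genes lie within 250 kb and 10 of them could be tested. With IFN-γ 2 were higher, the chemokine gene CCL5 (log2 fold change 3.02, SE 0.31, adjusted p = 3.7e-05) and the metalloproteinase gene MMP28 (0.76, SE 0.20, adjusted p = 0.0364). With CX3CL1 1 was, CCL5 (1.56, SE 0.31, adjusted p = 0.0156). Of all genes tested, 5.91% were higher with IFN-γ and 1.78% with CX3CL1. NLE1, the nearest gene on the left that could be tested (0.20, SE 0.16), did not pass with IFN-γ.

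Reads from near-identical copies can be assigned to the wrong member. Of the 100-base windows of the transcripts, 3.71% of those of SLFN8 and 3.90% of those of SLFN9 occurred in another Schlafen transcript, SLFN10-PS among them, and 0% of those of SLFN1, SLFN3 and SLFN5 did. How reads of such windows were counted is not given in the sources used here. SLFN10-PS itself had means of 0.475, 0.902, 1.57 and 2.20 TPM in the 4 groups and was higher with IFN-γ (0.81, SE 0.16, adjusted p = 0.00690). SLFN5 overlaps the antisense gene SLFN5OS, which was listed at 0 in all libraries but 1, at 0.123 TPM. SLFN14 and SLFNL1 were at most 0.0689 TPM in any library.

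Across the 12 libraries the tested members went up and down with each other to different degrees. Pearson r of log2(TPM + 1), given as a description over libraries that share 4 treatments, was 0.982 between SLFN2 and SLFN8, 0.975 between SLFN3 and SLFN8 and 0.971 between SLFN3 and SLFN9, and lowest, at 0.756, between SLFN2 and SLFN4. The genes most like SLFN2 outside the family were the guanylate-binding protein genes GBP2B (r = 0.995) and GBP9 (0.993) and the ubiquitin ligase gene TRIM21 (0.992). Those most like SLFN8 were RSAD2, which encodes viperin, BANK1 and IFI211, each at 0.989.

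SLFN3 and SLFN9 had the same gene as the most like, the glycerolipid enzyme gene GPAT3, at r = 0.981 and 0.990. The next most like SLFN3 were CLIC4 (0.966) and SAT1 (0.965), and those most like SLFN9 N4BP1 (0.970) and NUP155 (0.955). SLFN5 was most like CCRL2 (0.986), TNFSF10 (0.974) and MISP (0.972). SLFN4 had no match above 0.883, its value with the chemokine gene CCL4, followed by RIPK2 and LVRN at 0.874 each.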

How the data were processed

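RNA of CT26 cells was sequenced by the authors from strand-specific mRNA libraries, aligned to mm10 and counted per gene with STAR 2.7.3a, with DESeq2 1.22.1 for their own test. The deposited values are TPM, scaled by the authors to 1000000 per library, and how counts became TPM and the gene annotation are not given in the sources used here. TPM hold no depth, so no count test was run and no counting error is given. Groups and replicate numbers came from the labels, and doses and time from the methods and legends of the study.

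In R 4.3.3, limma 3.58.1 (lmFit, and eBayes with trend) was fitted to log2(TPM + 1) of the 11878 symbols that averaged 0.2 TPM or more, all 12 libraries together and no block, with Benjamini-Hochberg adjustment within each comparison and a threshold of 0.05. Simulated data with known changes were used to test the procedure. An exact permutation test of 3 against 3 libraries cannot go below p = 0.1. The members, gene lists, tests and alternatives were chosen with earlier results of these data known. The genes named are all 7 members, other Schlafen symbols, the 3 symbols most like each member tested, and from each list those with the 2 largest changes and the 2 highest mean TPM; the list genes named beyond these (all those called, where few) were chosen after their values were seen. Alternatives were another pseudocount (0.1), no filter, an average of 1 TPM or more, median-ratio and quantile scaling, only the libraries compared, no trend, a replicate block, each library left out, and both replicate 3 libraries with IFN-γ left out.

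Same-numbered libraries deviated together from their group means across genes with correlations of 0.429, 0.460 and 0.220 between untreated and IFN-γ libraries, 0.630, 0.635 and 0.649 between IFN-γ and both, and 0.351, 0.353 and 0.428 between CX3CL1 and both, which was taken as pairing. CX3CL1 and IFN-γ libraries had 0.584, 0.361 and 0.226. Untreated libraries had 0.387, 0.005 and 0.301 with CX3CL1 and 0.312, 0.447 and 0.032 with both. There number 2 and number 3, respectively, were far lower than the others, so pairing was not read from these values. The pairing rests on these correlations alone. Gene positions are from GENCODE vM21, and motifs were searched as exact letters on both strands. No positions of the deposited files were converted. A few genes of the lists and the neighbourhood are counted but not reported here or drawn.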

Additional observations from a re-analysis of the deposited data

How the results depend on the processing

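The direction of each member tested stayed the same under the alternatives run, except for the interaction of SLFN4, which was 0.26, became -0.017 with a pseudocount of 0.1 and ran from -0.045 without CX3CL1+IFN-γ replicate 3 to 0.43 without CX3CL1+IFN-γ replicate 2. SLFN2 was called in 15 of 15 alternatives in each of 3 comparisons (IFN-γ or CX3CL1 against no treatment, and both against CX3CL1), and SLFN8 in 15 of 15 with IFN-γ and with both against CX3CL1. The count of members called with CX3CL1 against no treatment was 2 and became 1 with no filter on low TPM, where SLFN8 had an adjusted p of 0.0703 over more genes, and ran from 1 to 2 when 1 library was left out. For both agents against CX3CL1 it was 4 and ran from 2 to 4 when 1 library was left out. In that comparison SLFN4 was called in addition with the block, and SLFN1 with no filter. For IFN-γ against no treatment it was 4, rose to 5 with a pseudocount of 0.1 and with the block, and ran from 3 to 4 when 1 library was left out, at 3 without untreated replicate 3 or IFN-γ replicate 3. For CX3CL1 added to IFN-γ it was 0 under the alternatives run.

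With the replicate number as a block, 1 member had a called interaction in place of 0, SLFN2 at -1.60 (adjusted p = 0.0263). The block was 1 fit over all 12 libraries, and the blocked values given with the results came from that fit. In 2 pairs of groups, no treatment with CX3CL1 and no treatment with both, same-numbered libraries did not deviate together throughout. That limit holds for all values of the fit. The block changed 2 other calls, of SLFN5 and SLFN4, given with the results. Without both replicate 3 libraries that had IFN-γ, SLFN9 lost its call against no treatment (adjusted p = 0.0798) and SLFN5 its call against CX3CL1 (0.0516), which it also lost with only the libraries compared (0.0842). SLFN1 could be tested only with no filter, where both agents against CX3CL1 gave 0.59 (SE 0.13, adjusted p = 0.0365). In the fits without 1 library, the group of 2 was assumed to vary like the other groups. Scaling moved the median of all genes by at most 0.08 on the log2 scale. With TPM alone, the depth behind the members at or near 0 is unknown.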
